A study of Mus musculus with 58 samples.

Results

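The rows described here are the Wnt, Fgf and Bmp genes of a single-cell count table from mouse embryonic pancreas: every row whose symbol is Wnt, Fgf or Bmp followed by digits and an optional a or b. The rule found 45 of the table's 19699 genes, made up of 16 Wnt, 20 Fgf and 9 Bmp rows. It took no measured value, apart from a minimum of 50 transcripts over the wells kept as cells, which 23 rows reached (8 Wnt, 9 Fgf and 6 Bmp) and which sets the rows whose levels are given. Fgf16 with 52 transcripts and Bmp5 with 54 were just inside this minimum, and Fgf5 with 46 and Wnt9b with 33 were just outside it. Those counts are over the 4318 wells that passed the minimum of transcripts and genes, and all later counts are over the 4310 left after 8 possible doublets were removed, which took 1 transcript each from Bmp5 and Fgf5.

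The study used SORT-seq, which places single sorted cells in wells of a 384-well plate and counts their transcripts with molecular identifiers. Per the labels, embryos came from pregnant females carrying MIP-GFP, a transgene with green fluorescent protein under the mouse insulin promoter. Cells of dissected pancreas were taken as live cells or as GFP-positive cells, with no other allele or treatment named. E12.5 had 8 live and 9 GFP libraries, E13.5 had 4 and 4, E14.5 had 3 and 4, E15.5 had 9 and 8, and E18.5 had 5 and 4. Of these, 1 live and 1 GFP library at E12.5 and again at E15.5 matched no column used here and gave no cells. The GFP sort enriches cells with insulin promoter activity, so shares of cells reflect the sorts and no share is compared between stages. The labels do not say which embryos or litters each plate held, so p-values measure the spread between experiments only.

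Wnt proteins are secreted, lipid-modified ligands that bind Frizzled receptors with Lrp5 or Lrp6, or Ror receptors. They act through beta-catenin or through other routes that set cell shape and polarity. Fgf proteins bind receptor tyrosine kinases, and Spry, Dusp6 and Etv genes are common readouts of that signal. Fgf11 to Fgf14 are the exception in this family, since they stay inside the cell and bind sodium channels. Bmp proteins bind paired serine/threonine kinase receptors and act through Smad proteins, with Id genes as common targets. Bmp1 differs from the others, being a protease that processes procollagen and the Bmp inhibitor chordin. In the developing pancreas the mesenchyme and the mesothelium that covers the organ are known sources of such signals for the epithelium, and Fgf10 from mesenchyme is known to keep pancreatic progenitors dividing.

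A total of 4310 wells were kept as cells, on 15 plates from 7 experiments coded EP10 (E15.5), EP11 (E12.5), EP12 (E13.5), EP14 (E14.5), EP16 (E18.5), EP17 (E15.5) and EP18 (E12.5). Plates held 1150013 to 9490716 transcripts in these cells, with a median of 6782 to 27218 per cell, lowest on the 2 plates of EP17 and the 2 of EP18. The number of wells sharing an identical profile was 0. Cells were clustered without the Wnt, Fgf and Bmp genes, their pathway genes and cell-cycle genes, and clusters were named from fixed marker lists. This gave 2035 endocrine-like, 640 mesenchyme-like, 283 immune-like, 281 tip-like, 261 trunk-like and 140 mesothelium-like cells. Tip cells carry acinar genes and trunk cells carry duct and bipotent progenitor genes. Levels are given as CPM, the transcripts of a gene per 1000000 transcripts of the cells summed. Mesothelium markers summed to 2008 CPM in mesothelium-like cells, where all 8 listed markers in the table were detected, against 209 in mesenchyme-like cells and at most 14.8 in tip-like, trunk-like, endocrine-like and immune-like cells. Mesothelium-like cells also carried the mesenchyme markers, at 10512 against 15976 CPM. Another 263 epithelial cells, all but 2 from E12.5, stayed unassigned. Tip, trunk and hepatocyte markers summed to 2541, 2125 and 1648 CPM in them, and the hepatocyte genes Alb and Afp were among their leading genes. Also 336 cells led by Cartpt and Fgb, mostly from the MIP-GFP plate of EP11, were held apart. Their cluster had 9 of 16 endocrine and 6 hepatocyte markers raised, and 283 of them fell in the glucagon gate described below. EP11 gave 288 of these cells and 40 endocrine-like cells, so the endocrine-like class leaves out many E12.5 cells with endocrine markers. Sums over at least 10 cells of a class in an experiment were compared, which gave 6 experiments for mesothelium, mesenchyme and immune, 4 for tip, 5 for trunk and 7 for endocrine. EP17 held too few mesenchyme-like and mesothelium-like cells, no E12.5 experiment gave tip or trunk sums, and E18.5 gave no tip sum.

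The families divided among the cell classes. Of the 8 described Wnt genes, Wnt2b, Wnt3, Wnt5b and Wnt9a had their highest level of the 6 named classes in mesothelium-like cells, Wnt5a and Wnt11 in mesenchyme-like cells, Wnt7b in trunk-like cells and Wnt4 in endocrine-like cells. Among the secreted Fgf genes, Fgf1, Fgf9, Fgf10, Fgf16 and Fgf18 were highest in mesothelium-like cells and Fgf7 in mesenchyme-like cells. The ranks of Fgf1 and Fgf7 came from E18.5: without EP16 Fgf1 was highest in mesenchyme-like cells (10.2 CPM) and Fgf7 in endocrine-like cells (1.07). Of the intracellular ones, Fgf13 was highest in mesothelium-like cells and Fgf12 and Fgf14 in endocrine-like cells. Among the Bmp genes, Bmp4 was highest in mesothelium-like cells, Bmp5 and Bmp1 in mesenchyme-like cells, Bmp2 in immune-like cells, Bmp7 in tip-like cells and Bmp8b in trunk-like cells. These orders are descriptions of pooled counts, and neighbours in them often overlap. Leaving out 1 experiment in turn changed the highest class of 3 more genes, with mesenchyme-like cells then highest for Wnt4 without EP16, Wnt5b without EP11 and Fgf10 without EP14. Fgf10 stood at 25.9 and 21.5 CPM and Wnt5b at 13.3 and 12.2 in mesothelium-like and mesenchyme-like cells, with adjusted p of 0.565 for Fgf10 and 1 for Wnt5b in edgeR's test between these classes.

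**Figure D1:**
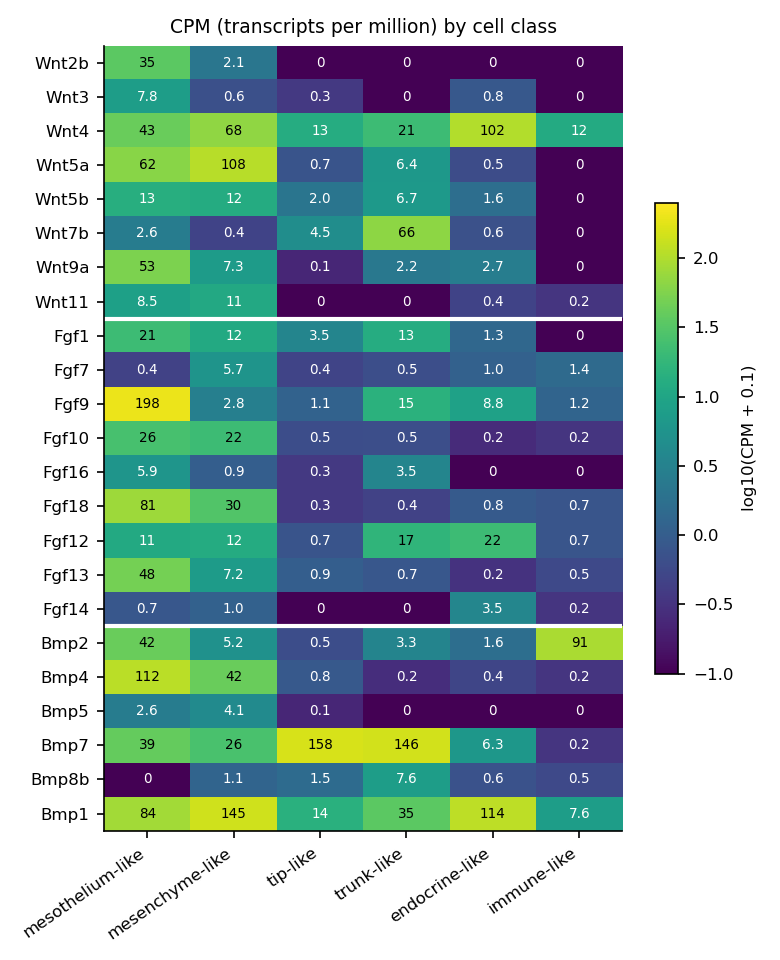
CPM of the 23 described genes (rows; Wnt, Fgf and Bmp blocks, with the intracellular Fgf genes and Bmp1 last in theirs) in the 6 named cell classes (columns), pooled over experiments; colour is on a log10 scale after adding 0.1. Fgf9 is at 198 in mesothelium-like cells and at most 14.6 in the other columns, and in the immune-like column Bmp2 is at 91.5 while every other gene is at 12.0 or lower.

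The other 22 rows had between 0 and 45 transcripts in the kept cells, with a median of 7, and are named only: Wnt2, Wnt6, Wnt7a, Wnt8b, Wnt9b, Wnt10a, Wnt10b and Wnt16; Fgf2, Fgf3, Fgf5, Fgf6, Fgf8, Fgf11, Fgf15, Fgf17, Fgf20, Fgf21 and Fgf23; and Bmp3, Bmp6 and Bmp8a. Fgf15, the gut hormone that restrains bile acid synthesis, had 0. Fgf5 is singled out after its values were seen: 41 of its 45 transcripts came from mesothelium-like cells, at 15.2 CPM, and 1 from the larger class of mesenchyme-like cells.

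Which ligands mark the outer layer of the organ was read from mesothelium-like against mesenchyme-like cells of the same experiments, with an adjusted p from edgeR's quasi-likelihood test after Benjamini-Hochberg correction over all genes tested. Fgf9, Wnt2b, Wnt9a, Bmp2, Bmp4, Fgf13 and Fgf18 were higher in mesothelium-like cells, and Bmp1 was lower. Fgf9 had the largest difference of these. The fit tested 18 of the 23 described genes, of which 7 were higher and 1 lower, while 18.0% of all 12198 genes tested passed the threshold of an adjusted p of 0.05 (10.4% higher and 7.64% lower). The median log2 difference was 1.1 over the 18 and -0.05 over all genes tested.

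Fgf9 is a ligand that in other organs passes from mesothelium and epithelium to mesenchyme. In mesothelium-like cells it stood at 161 and 388 CPM in the E12.5 experiments EP11 and EP18, 317 at E13.5, 226 at E14.5, 137 at E15.5 and 101 at E18.5. In mesenchyme-like cells of the same experiments Fgf9 ran from 0 to 7.92 CPM. The 2 groups did not overlap at any stage. The fitted log2 difference was 6.20 ± 0.50 (SE, n = 6 experiments, edgeR adjusted p = 1.37e-10). Some 85.7% of mesothelium-like cells had an Fgf9 transcript against 2.5% of mesenchyme-like cells, and 31.4% against 0.57% after thinning each cell to 2000 transcripts. For immune-like cells, which should lack it, the thinned share was 0.14%, with a median depth of 13637 transcripts per cell against 17476 in mesothelium-like cells.

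Wnt2b, a ligand known from other embryonic organ linings and mesenchyme, was counted mostly in these cells. It stood at 21.7 and 13.6 CPM at E12.5, 24.1 at E13.5, 31.0 at E14.5, 55.0 at E15.5 (EP10) and 60.7 at E18.5 in mesothelium-like cells. Mesenchyme-like cells had 0 in all 3 experiments of E12.5 and E13.5, 1.25 and 0.747 CPM at E14.5 and E15.5, and 12.7 at E18.5. Wnt2b was higher in every experiment, with a log2 difference of 4.51 ± 0.70 (SE, n = 6, edgeR adjusted p = 0.000493). DESeq2 gave 4.85 with an adjusted p of 0.405. Not a single Wnt2b transcript was counted in tip-like, trunk-like, endocrine-like or immune-like cells, so the mesothelium-like level was at least 151-fold higher than in tip-like and trunk-like cells together and at least 425-fold higher than in endocrine-like cells, against a floor of 3 counts over each group.

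The stretches upstream of these 2 genes are shown because both were high in mesothelium-like cells and near 0 in most other classes. They are the 250 bases before 1 transcript start per gene, from RefSeq on GRCm38.p6, written 5′ to 3′ in the direction of transcription. For Wnt2b that start is the first base of the RefSeq gene, and for Fgf9 it lies 2015 bases inside it. The GENCODE gene models begin farther upstream, by 212 bases for Wnt2b and 2139 for Fgf9. Capitals mark the GC box GGGCGG on either strand. Fgf9 lies at chr14:58072436-58072685 on the plus strand and Wnt2b at chr3:104961710-104961959 on the minus strand.
Fgf9: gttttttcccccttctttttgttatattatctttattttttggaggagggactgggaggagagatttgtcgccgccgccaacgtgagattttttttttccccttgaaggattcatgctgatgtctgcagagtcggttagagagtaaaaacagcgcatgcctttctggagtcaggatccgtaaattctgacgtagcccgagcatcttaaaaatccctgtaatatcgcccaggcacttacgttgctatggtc
Wnt2b: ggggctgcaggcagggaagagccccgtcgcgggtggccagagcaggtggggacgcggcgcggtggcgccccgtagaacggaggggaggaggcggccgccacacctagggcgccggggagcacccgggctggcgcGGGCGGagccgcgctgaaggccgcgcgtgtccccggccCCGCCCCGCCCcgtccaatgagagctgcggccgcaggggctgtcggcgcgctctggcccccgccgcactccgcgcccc
The 2 stretches differ in base composition, with 44.8% G and C for Fgf9 and 80.8% for Wnt2b. The Wnt2b stretch holds the GC box 3 times and the Fgf9 stretch does not hold it, while 32.7% of all 32851 upstream stretches of this length do. The TATA letters TATAAA (12.4% of all stretches), the Tcf/Lef core CTTTGT (16.5%) and a Wt1 core GCGTGGG (4.3%), each searched on both strands, were in neither. A promoter was found for 16 of the 23 described genes, of which 13 hold the GC box, 1 (Wnt11) TATAAA, 2 (Fgf7 and Fgf13) the Tcf/Lef core and 3 (Fgf12, Wnt4 and Wnt5b) the Wt1 core.

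Wnt9a, a ligand of the beta-catenin route in several tissues, was at 26.1 and 47.7 CPM in mesothelium-like cells at E12.5, 27.6 at E13.5, 51.1 at E14.5, 55.0 at E15.5 and 131 at E18.5. In mesenchyme-like cells Wnt9a ran from 0 to 18.0 CPM. The log2 difference was 2.94 ± 0.67 (SE, n = 6, edgeR adjusted p = 0.00235), and the groups did not overlap. Fgf18, which shares receptors with Fgf9, was at 72.4 to 95.4 CPM in mesothelium-like cells, and in mesenchyme-like cells it was at 4.90 and 5.84 at E12.5 and 124 at E18.5. The groups therefore overlapped, and at E18.5, where mesothelium-like cells had 84.3, the mesenchyme-like value was the higher. Its log2 difference was 1.81 ± 0.46 (SE, n = 6, edgeR adjusted p = 0.00517); without the pairing by experiment it was 1.15 with an adjusted p of 0.182, without EP14 1.65 with an adjusted p of 0.0618, and after thinning 1.73 with 0.105.

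Bmp4, a ligand that patterns gut-derived organs, was present in both layers. In mesothelium-like cells it was at 117 and 252 CPM at E12.5 and at 90.2 to 107 in the other experiments. Mesenchyme-like cells had 94.6 and 81.7 at E12.5 and 17.9 to 31.5 from E13.5 on. Bmp4 was higher in mesothelium-like cells of all 6 experiments, by 1.65 ± 0.31 (log2, SE, edgeR adjusted p = 0.000205). The ranges overlapped only through the E12.5 mesenchyme-like value of 94.6. After thinning to 2000 transcripts the difference was 1.34 with an adjusted p of 0.0703. Bmp2, which signals through the same receptors as Bmp4, was at 5.79 and 6.81 CPM at E12.5 and at 43.8 to 65.5 from E13.5 to E18.5, against 0 to 7.47 in mesenchyme-like cells. The E12.5 mesothelium-like values thus lay within the mesenchyme-like range. The log2 difference for Bmp2 was 3.01 ± 0.50 (SE, n = 6, edgeR adjusted p = 4.87e-05).

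Fgf13, an intracellular member that binds sodium channels and microtubules, was at 8.69 and 54.5 CPM at E12.5 and 33.7 to 82.5 later in mesothelium-like cells, and at 3.02 to 14.6 in mesenchyme-like cells. Its log2 difference was 2.76 ± 0.45 (SE, n = 6, edgeR adjusted p = 3.21e-05). The E12.5 mesothelium-like value of 8.69 lay within the mesenchyme-like range. Neural and glial markers, of cells with much Fgf13, summed to 18.8 CPM in mesothelium-like cells and 64.9 in mesenchyme-like cells. Their part in this Fgf13 difference was not tested. Bmp1, the procollagen protease, was lower in mesothelium-like cells by 0.72 ± 0.24 (log2, SE, edgeR adjusted p = 0.0338), at 55.0 to 138 against 54.5 to 211 CPM. This last call was lost without EP10, EP12 or EP14 (adjusted p 0.111 to 0.136), without the pairing by experiment (0.129), after thinning (0.336) and in DESeq2 (0.0616).

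**Figure D2:**
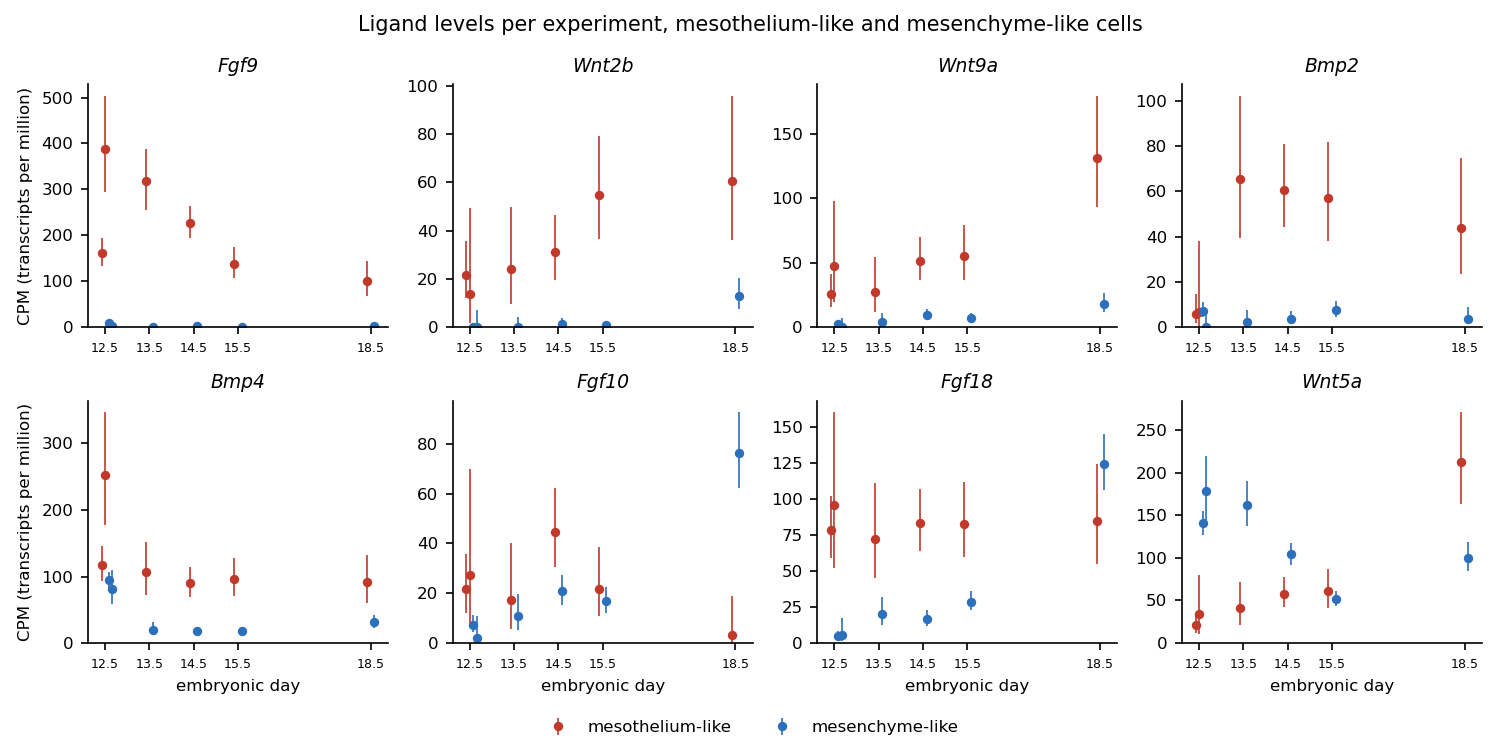
CPM (y axes, linear, starting at 0) against embryonic day (x axes) for 8 ligands, with 1 point per experiment and exact Poisson 95% intervals that cover counting error only. Points of mesothelium-like cells lie above those of mesenchyme-like cells for Fgf9 and Wnt2b at every stage, while Fgf10 and Fgf18 are higher in mesenchyme-like cells at E18.5 and Wnt5a is higher in mesothelium-like cells there.

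Among receptors and targets, fixed as lists that hold none of the members, 5 of 7 tested Fgf targets were lower in mesothelium-like than in mesenchyme-like cells and 0 were higher (median log2 difference -2.85 against -0.05 over all genes). The 4 with the largest differences were Spry4 (-5.20 ± 0.58, SE), Etv5 (-5.04 ± 1.08), Spry1 (-3.68 ± 0.42) and Dusp6 (-2.85 ± 0.57), all feedback inhibitors or transcription factors downstream of Fgf receptors. The cells with the Fgf9 transcripts therefore had less of these target transcripts than mesenchyme-like cells. Of 6 Fgf receptors, Fgfr1 was lower (-1.36 ± 0.32) and none was higher. Wnt receptors went both ways, with 4 of 13 higher and 3 lower: Fzd6 by 3.40 ± 0.44, Fzd5 by 3.27 ± 0.41 and Fzd4 by 2.73 ± 0.48 were higher, and Ror2, a receptor for Wnt5a, was lower (-1.73 ± 0.33). Of 10 Wnt secretion genes and modifiers, 4 were higher and 2 lower, led by Rspo1, which strengthens Wnt signals at Lgr receptors, at 4.77 ± 0.38. Among Bmp targets 3 of 7 were higher and 0 lower (Smad9 2.87 ± 0.75, Id4 1.82 ± 0.38, Smad6 1.07 ± 0.32). Of 7 Bmp receptors 2 were higher and 1 lower, with Bmpr1b at 3.58 ± 0.63, Acvr2b at 1.56 ± 0.36 and Acvrl1 at -2.75 ± 0.76, and of 7 Bmp modifiers 2 were higher, Fst at 3.06 ± 0.85 and Twsg1 at 0.85 ± 0.18.

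Change with stage was read as a slope per day over experiments, within each class. Fgf10 and Fgf18 rose in mesenchyme-like cells, and Wnt5a and Wnt9a rose in mesothelium-like cells. The 2 layers ran apart for 3 ligands: Fgf10 and Fgf18 had the steeper slope in mesenchyme-like cells and Wnt5a in mesothelium-like cells. The test of this difference of slopes was added after the data were seen. In mesenchyme-like cells 2 of 14 tested members rose and 0 fell, against 5.79% of all genes tested (4.39% rose and 1.40% fell). In mesothelium-like cells 2 of 12 rose and 0 fell, against 5.57% (4.45% rose and 1.12% fell). The slopes lean on E18.5, which is a single experiment, and each class is made of different clusters at different stages. Of the mesenchyme-like cells, cluster 7 took 143 and 67 of its 238 cells from EP11 and EP18, cluster 12 took 44 and 104 of 157 from EP12 and EP14, cluster 13 took 100 of 130 from EP10 and cluster 16 took 113 of 115 from E18.5. Cluster 13, led by Acta2, had 8 of 11 mesenchyme markers and 6 pericyte and smooth muscle markers raised. Clusters 7, 12 and 16 had 3, 4 and 4 pericyte and smooth muscle markers raised. Of the 21 mesothelium-like cells of E18.5, 18 formed cluster 24, which held no cell of another stage and had 8 of 8 mesothelium and 5 mesenchyme markers raised, while the earlier cells were in cluster 15, with 3 mesothelium markers raised. A change within a cluster and a change of clusters cannot be told apart for the E18.5 values. The same holds for mesenchyme-like cells of E12.5 and E15.5. Cluster 7 held 143 of 144 such cells of EP11 and 67 of 67 of EP18, and cluster 13 held 100 of 111 of EP10.

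In mesenchyme-like cells Fgf10 was at 7.16 and 1.95 CPM at E12.5, 10.7 at E13.5, 20.8 at E14.5, 16.8 at E15.5 and 76.4 at E18.5. Its slope was 0.63 ± 0.08 log2 units per day (SE, n = 6, edgeR adjusted p = 0.00276). In mesothelium-like cells Fgf10 ran between 17.2 and 44.4 from E12.5 to E15.5 and was at 3.37, which is 1 transcript, at E18.5, with a slope of -0.21 ± 0.19 (adjusted p = 0.612). The difference of the slopes, mesothelium minus mesenchyme, was -0.84 ± 0.16 per day (edgeR adjusted p = 0.0162; 1.60% of all 8498 genes tested passed). Fgf18 went from 4.90 and 5.84 CPM at E12.5 through 20.3, 16.7 and 28.7 to 124 at E18.5 in mesenchyme-like cells, a slope of 0.73 ± 0.08 (edgeR adjusted p = 0.00102). For Fgf18 in mesothelium-like cells the slope was 0.04 ± 0.07 (adjusted p = 0.818), and the difference of slopes was -0.69 ± 0.09 (edgeR adjusted p = 0.00124). Without EP16 the mesenchyme-like slopes were 0.62 for Fgf10 and 0.73 for Fgf18, close to the values with it, but with adjusted p of 0.386 and 0.254. The differences of slopes without EP16 were -0.43 for Fgf10 (adjusted p = 0.634) and -0.69 for Fgf18 (0.121).

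The upstream stretches of these 2 genes, which rose together in mesenchyme-like cells, are given in the same form as above. Fgf10 lies at chr13:118714449-118714698 on the plus strand and Fgf18 at chr11:33147401-33147650 on the minus strand. Both stretches end just before the first base of the RefSeq gene, while the GENCODE model of Fgf10 begins 44908 bases farther upstream.
Fgf10: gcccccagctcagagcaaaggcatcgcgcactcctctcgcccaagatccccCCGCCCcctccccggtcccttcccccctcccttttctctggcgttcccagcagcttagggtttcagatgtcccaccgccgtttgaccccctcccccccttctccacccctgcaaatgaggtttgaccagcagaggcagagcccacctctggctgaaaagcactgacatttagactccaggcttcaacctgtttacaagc
Fgf18: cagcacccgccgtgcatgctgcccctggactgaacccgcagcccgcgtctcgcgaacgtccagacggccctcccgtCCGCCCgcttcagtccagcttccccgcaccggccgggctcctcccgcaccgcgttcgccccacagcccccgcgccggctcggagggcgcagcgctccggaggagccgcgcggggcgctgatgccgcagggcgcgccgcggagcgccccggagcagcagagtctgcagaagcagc
Each holds the GC box 1 time, on the opposite strand, and none of the other letters searched. G and C make up 61.2% of the Fgf10 stretch and 77.2% of the Fgf18 stretch.

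Wnt5a, a ligand of Ror2 that guides cell movement and gut elongation, was at 141 and 179 CPM in mesenchyme-like cells at E12.5, 163 at E13.5, 104 at E14.5, 51.9 at E15.5 and 100.4 at E18.5 (slope -0.12 ± 0.09, adjusted p = 0.477). In mesothelium-like cells it went from 21.7 and 34.1 at E12.5 through 41.4, 57.9 and 60.9 to 212 at E18.5. Cluster 24, of E18.5 only, had 209 CPM and cluster 15 had 45.7. This slope was 0.53 ± 0.07 per day (SE, n = 6, edgeR adjusted p = 0.00124), and the difference of slopes was 0.61 ± 0.08 (edgeR adjusted p = 0.00117). Without EP16 the mesothelium-like slope of Wnt5a was 0.47 with an adjusted p of 0.461, and its difference of slopes was 0.98 with an adjusted p of 0.00391. Wnt9a in mesothelium-like cells had a slope of 0.39 ± 0.08 (edgeR adjusted p = 0.0163), and 0.37 without EP11 (adjusted p = 0.0693) and 0.31 without EP16 (0.709). The mesenchyme-like slope of Wnt9a, from 2.26 and 0 at E12.5 to 18.0 at E18.5, was 0.53 ± 0.14 (adjusted p = 0.0675).

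At E18.5 2 more Fgf ligands stood apart from the earlier stages, as a description of 1 experiment. Fgf7, which like Fgf10 binds the epithelial form of Fgfr2, had 38.9 CPM in mesenchyme-like cells at E18.5 and 0 to 1.87 in the 5 earlier experiments, and did not pass the filter on low counts in the fit. Fgf1, which binds all Fgf receptors, had 145 CPM in mesothelium-like cells at E18.5 and at most 10.8 before. In mesenchyme-like cells Fgf1 ran from 6.42 to 21.0. Endothelium markers were also higher in the E18.5 mesothelium-like cells, at 145 CPM against at most 66.0 in the other experiments, mesothelium markers were at 4247 against 922 to 2185, and the part of these cells' makeup in the Fgf1 value was not tested. Fgf9 in mesothelium-like cells had a slope of -0.23 ± 0.09 (adjusted p = 0.201), and Wnt2b 0.33 ± 0.10 (adjusted p = 0.0866), so neither passed. Bmp4 in mesenchyme-like cells, from 94.6 and 81.7 at E12.5 to 20.3 at E13.5, had a slope of -0.23 ± 0.14 (adjusted p = 0.369).

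Ligands that separate mesenchyme from epithelium were read from mesenchyme-like cells against the mean of tip-like and trunk-like cells. Most tested members were higher in mesenchyme, with Fgf10, Fgf18 and Bmp4 near 0 and Wnt11 at 0 in the epithelium. Bmp7 and Wnt7b were the exceptions and were higher in the epithelium. Of 18 tested members 13 were higher and 2 lower, while 51.1% of all genes tested passed (26.5% higher and 24.6% lower). The median log2 difference was 2.28 over the 18 and 0.03 over all genes tested.

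For Wnt5a, the mesenchyme-like levels given above compare with 0 to 1.54 CPM in tip-like cells and 0 to 21.9 in trunk-like cells, where the highest value was at E18.5. Its log2 difference was 5.91 ± 0.55 (SE, edgeR adjusted p = 2.38e-09). Bmp4 was at 0 to 1.28 in tip-like and 0 to 0.664 in trunk-like cells, a log2 difference of 5.68 ± 0.53 (edgeR adjusted p = 5.88e-10). Both differences cover groups that did not overlap. Fgf10, at 0 to 1.70 CPM in tip-like and 0 to 2.86 in trunk-like cells, differed by 4.95 ± 0.68 (edgeR adjusted p = 6.44e-07), with the E12.5 mesenchyme-like value of EP18, 1.95, inside the trunk-like range. Fgf18, at 0 to 1.35 in tip-like and 0 to 1.01 in trunk-like cells, differed by 6.17 ± 0.71 (edgeR adjusted p = 2.09e-08).

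Wnt11, a ligand of the polarity routes, was at 5.23 to 23.2 CPM in mesenchyme-like cells of the 6 experiments, and no Wnt11 transcript was counted in tip-like or trunk-like cells. Its level was at least 48.1-fold higher in mesenchyme-like cells, against a floor of 3 counts over the 2 epithelial classes together. Wnt2b was likewise at 0 in both epithelial classes, and the mesenchyme-like level of 2.09 CPM was at least 9.05-fold higher. That Wnt2b call was lost in DESeq2 (adjusted p = 0.483). Wnt5b, a close relative of Wnt5a, was at 5.28 to 21.7 CPM in mesenchyme-like cells, 0 to 5.64 in tip-like and 4.03 to 9.53 in trunk-like cells, with a log2 difference of 1.89 ± 0.41 (edgeR adjusted p = 0.000387) and overlapping ranges.

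Wnt4, a ligand best known from kidney and gonad, was at 19.5 to 113 CPM in mesenchyme-like cells, 5.40 to 22.2 in tip-like and 8.64 to 61.0 in trunk-like cells, a log2 difference of 1.90 ± 0.35 (edgeR adjusted p = 3.51e-05). Endocrine markers, which mark the cells with the most Wnt4, summed to 642 CPM in mesenchyme-like cells, 359 in tip-like and 938 in trunk-like cells. Their part in the Wnt4 difference was not tested. Bmp1 was higher by 2.61 ± 0.22 (edgeR adjusted p = 5.6e-11). The remaining calls were Bmp2 (1.95 ± 0.64, adjusted p = 0.0126), Fgf13 (3.16 ± 0.58, adjusted p = 3.79e-05), Fgf12 (1.63 ± 0.60, adjusted p = 0.0253) and Wnt9a (3.14 ± 0.94, adjusted p = 0.00718). Pooled Fgf12 was lower in mesenchyme-like (12.4 CPM) than in trunk-like cells (16.7), and tip-like cells had 0.666. The Bmp2 ranges overlapped, at 0 to 7.47 CPM in mesenchyme-like and 0 to 7.97 in trunk-like cells. Neural and glial markers, at the 64.9 CPM given above in mesenchyme-like cells, summed to at most 50.6 in tip-like and trunk-like cells, and their part in the Fgf13 difference was not tested. The Fgf12 call was lost without EP12 or EP14 (adjusted p 0.138 and 0.19) and the Wnt9a call without EP14 (0.0501). After thinning each cell to 2000 transcripts the Bmp2 difference was 0.08 (adjusted p = 0.972).

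Pathway genes also separated the 2 tissues. Of 6 Fgf receptors 5 were lower in mesenchyme-like cells and 1 was higher, led by the coreceptor Klb (-4.46 ± 0.64), Fgfr4 (-4.24 ± 0.47), Fgfr3 (-2.32 ± 0.39) and the decoy Fgfrl1 (-1.98 ± 0.26). Fgf targets were higher in 5 of 7 and lower in 0, with Spry4 at 5.26 ± 0.42 and Etv1 at 3.22 ± 0.42. Of 10 Wnt secretion genes and modifiers 7 were higher and 0 lower, led by Dkk2 (6.21 ± 0.51), Rspo3 (5.75 ± 0.55), Sfrp2 (4.83 ± 0.35) and Sfrp1 (4.73 ± 0.33). Wnt targets were higher in 3 of 6 (Lef1 6.99 ± 1.24, Nkd1 4.44 ± 0.50, Axin2 2.11 ± 0.26) and lower in 2, among them Rnf43 (-6.05 ± 0.83). Wnt receptors were split, with 6 of 13 higher, among them Ror1 (3.48 ± 0.57), and 4 lower, among them Fzd5 (-4.01 ± 0.37). Bmp modifiers were higher in 5 of 7 (Chrd 4.97 ± 0.81, Fstl1 4.34 ± 0.47), Bmp receptors in 3 of 7 with 1 lower (Acvrl1 6.76 ± 0.83), and of 7 Bmp targets 0 were higher and 1 was lower (Id2 -2.14 ± 0.53).

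**Figure D3:**
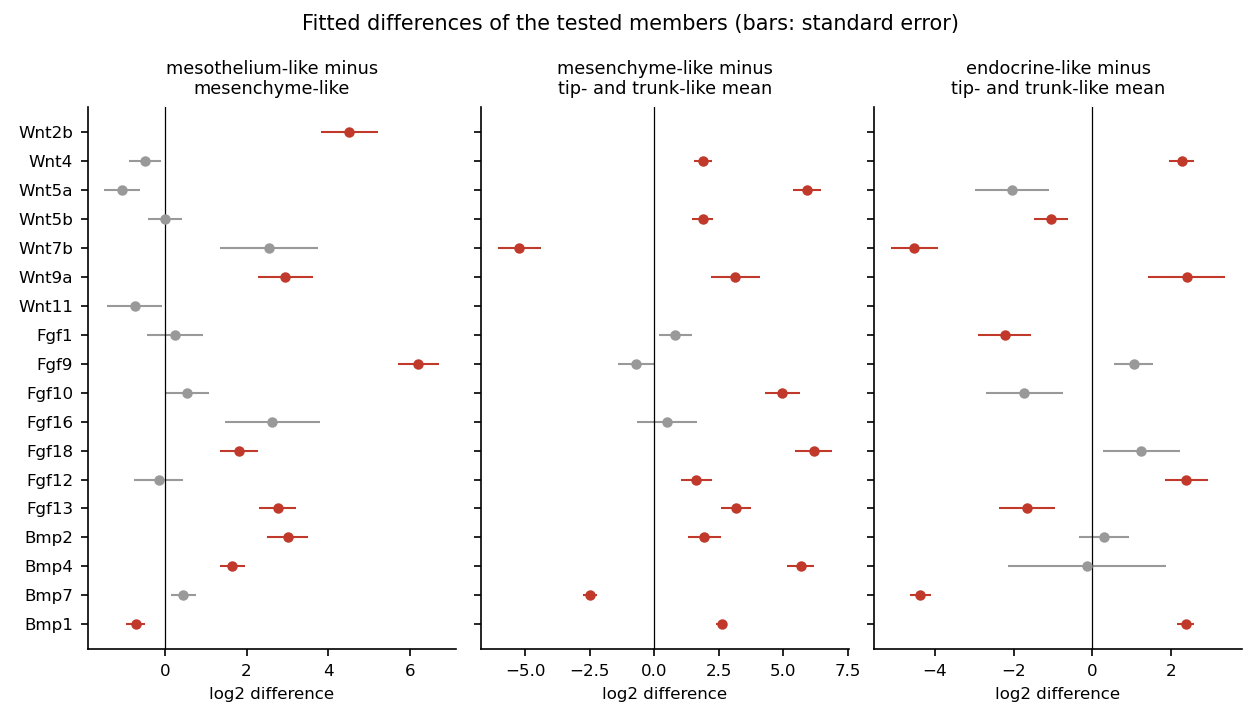
Fitted log2 differences (x axes) of the 18 members tested, with bars of 1 standard error, for mesothelium-like minus mesenchyme-like, mesenchyme-like minus the mean of tip-like and trunk-like, and endocrine-like minus that mean. Red points passed an adjusted p of 0.05 and grey points did not. Members with no transcript in a whole group, such as Wnt11 in the epithelium, are left out because their fitted value is no measure of size. Fgf9 at 6.20 is farthest right in the left panel, and Wnt7b at -5.22 and -4.51 is farthest left in the other panels.

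Within the epithelium, tip-like and trunk-like cells shared Bmp7 and differed in Wnt7b. Wnt7b, Fgf12, Fgf9 and Bmp1 were lower in tip-like cells, and no tested member was higher there. Of 18 tested members 4 were lower, while 20.6% of all genes tested passed (10.6% higher and 9.99% lower). The median log2 difference was -1.01 over the 18, among them Wnt2b and Wnt11 with no transcript in either class, and -0.02 over all genes tested.

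Wnt7b, an epithelial ligand known from lung, kidney and pancreas, was at 62.8 CPM at E13.5, 82.4 at E14.5, 73.6 and 35.3 in EP10 and EP17 at E15.5 and 49.5 at E18.5 in trunk-like cells. In tip-like cells it was at 10.3 at E13.5, 4.62 at E14.5 and 0 in both E15.5 experiments. The ranges did not overlap. The log2 difference, tip minus trunk, was -4.00 ± 0.65 (SE, edgeR adjusted p = 0.000124). At E12.5, before tip and trunk could be separated, the unassigned epithelial cells had 75.2 CPM in EP11 and 16.4 in EP18. Some 60.9% of trunk-like cells had a Wnt7b transcript against 8.54% of tip-like cells, and 11.5% against 0.72% after thinning to 2000 transcripts. Immune-like cells, which should lack it, had 0 of 283, which allows 3 transcripts or 0.691 CPM.

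Bmp7, a ligand made by many epithelia, was at 205 CPM at E13.5, 183 at E14.5 and 113 and 78.3 at E15.5 in tip-like cells. Trunk-like cells had 169, 161, 133 and 65.6 in the same experiments and 108 at E18.5, and the E12.5 unassigned cells had 160 and 188. The tip minus trunk difference was 0.42 ± 0.28 on the log2 scale (edgeR adjusted p = 0.327). Bmp7 was lower in mesenchyme-like than in tip-like and trunk-like cells by 2.49 ± 0.27 (log2 difference -2.49, edgeR adjusted p = 8.37e-09), and Wnt7b likewise with -5.22 ± 0.84 (edgeR adjusted p = 1.79e-05). In mesenchyme-like cells Bmp7 ran from 8.59 to 39.7 CPM and Wnt7b from 0 to 1.13. The epithelial slope over stage did not pass for Bmp7 (-0.19 ± 0.08 per day, adjusted p = 0.332).

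Fgf12, an intracellular sodium channel partner, was at 0 to 1.70 CPM in tip-like cells and at 6.39, 8.64, 27.2, 0 and 39.1 in trunk-like cells of EP12, EP14, EP10, EP17 and EP16. The log2 difference was -4.18 ± 0.89 (edgeR adjusted p = 0.001). Fgf9 was at 0.426 to 1.65 in tip-like cells and 15.7, 6.65, 4.03, 0 and 37.2 in trunk-like cells, a difference of -3.28 ± 0.80 (edgeR adjusted p = 0.00361). After thinning to 2000 transcripts the Fgf9 difference was -2.07 (adjusted p = 0.412). For both genes the trunk-like sum of EP17, from 26 cells, was 0 and overlapped the tip-like values. Endocrine markers summed to 938 CPM in trunk-like and 359 in tip-like cells, and Fgf12 and Fgf9 were also counted in endocrine-like cells. Their part in these differences was not tested. Bmp1 differed by -0.98 ± 0.32 (adjusted p = 0.0275), a call lost without EP10, EP12, EP14 or EP17 (adjusted p 0.0714 to 0.159) after thinning (0.394), in the wells of the authors' smaller table (0.117) and without the pairing by experiment (0.0512). Wnt5a (-2.57 ± 1.08, adjusted p = 0.0974) and Wnt5b (-1.49 ± 0.58, adjusted p = 0.0737) did not pass.

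**Figure D4:**
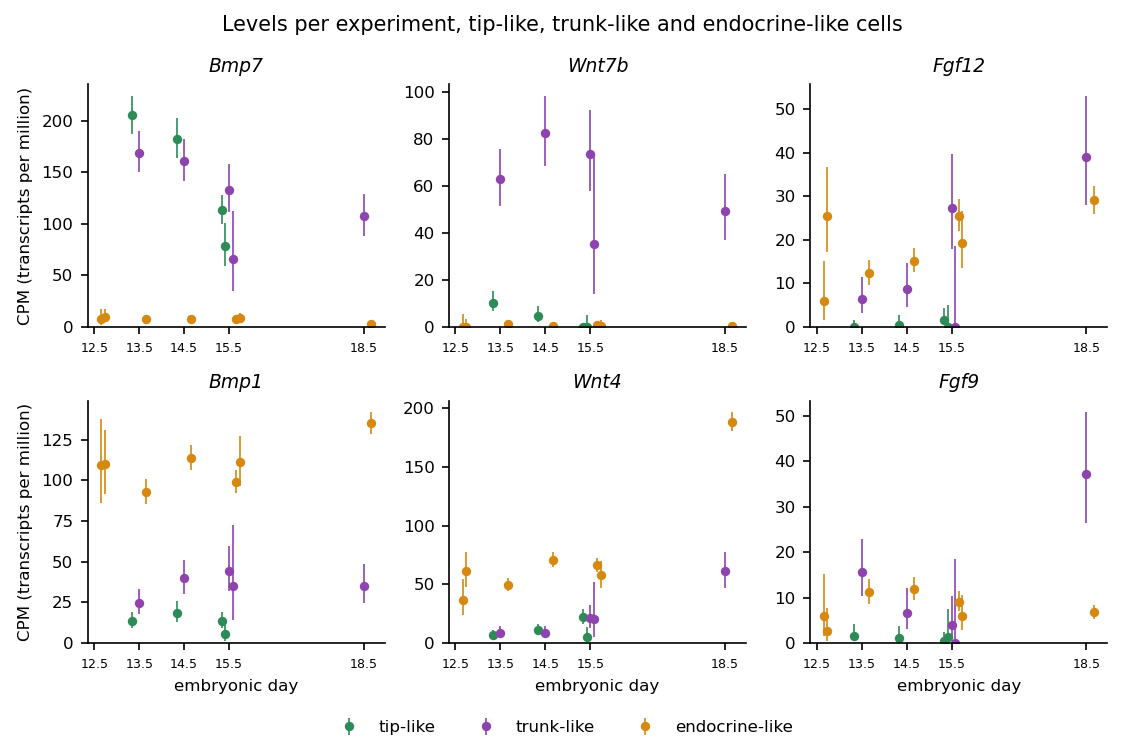
CPM (y axes, linear, starting at 0) against embryonic day (x axes) for 6 members, with 1 point per experiment and exact Poisson 95% intervals. Bmp7 lies between 65.6 and 205 in tip-like and trunk-like cells and at or below 9.69 in endocrine-like cells, and Wnt7b is high in trunk-like cells and low in the other 2 classes plotted.

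Of the epithelial pathway genes, Fgf receptors were lower in tip-like cells in 4 of 6 cases and higher in 0: Fgfr3 (-3.46 ± 0.45), Fgfr2 (-3.03 ± 0.51), Fgfr4 (-2.20 ± 0.44) and Fgfrl1 (-0.79 ± 0.28). Bmpr1b was higher in tip-like cells (6.08 ± 1.37), while Bmpr2 (-0.87 ± 0.23) and Bmpr1a (-0.71 ± 0.23) were lower, and the Bmp targets Id3 (1.63 ± 0.48) and Id1 (1.55 ± 0.53) were higher, 2 of 7 with 0 lower. Among Wnt genes, Notum, which removes the lipid from Wnt proteins (3.63 ± 1.05), and the secreted antagonist Frzb (3.04 ± 1.05) were higher in tip-like cells, and the target Axin2 was lower (-1.21 ± 0.37). Over stage, 0 of 10 tested members passed edgeR's test in the epithelium (tip-like and trunk-like cells summed), against 0.819% of all genes tested. Of the 10, 5 had an unadjusted p under 0.05, and DESeq2 called 4. The lowest adjusted p was that of Wnt4, with 0.59 ± 0.11 per day (0.0559), followed by Wnt5a with 1.06 ± 0.23 (0.0937). The E18.5 sum held 65 trunk-like cells and no tip-like cell. Those of EP10, EP12, EP14 and EP17 held 81, 83, 44 and 71 tip-like cells beside trunk-like ones. For the E18.5 values, stage and the share of tip-like cells cannot be told apart in these slopes.

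Endocrine-like cells had little of the epithelial ligands Bmp7 and Wnt7b and carried Wnt4, Bmp1 and Fgf12. Against the mean of tip-like and trunk-like cells, 4 of 18 tested members were higher and 6 were lower, while 62.6% of all genes tested passed (34.0% higher and 28.6% lower). The median log2 difference was -0.33 over the 18 and 0.10 over all genes tested. The share of calls among the members, 10 of 18, was thus near that of all genes.

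Wnt4 in endocrine-like cells was at 37.1 and 61.7 CPM at E12.5, 49.7 at E13.5, 71.0 at E14.5, 66.5 in EP10 and 57.6 in EP17 at E15.5, and 189 in EP16 at E18.5. The 37.1 of EP11 came from 40 cells, while 288 EP11 cells were in the set held apart. In that set Wnt4 was at 41.9 to 97.3 CPM in 3 experiments. The log2 difference of Wnt4 between endocrine-like cells and the epithelium was 2.26 ± 0.33 (edgeR adjusted p = 6.53e-07). These ranges overlapped only through the trunk-like value of 61.0 at E18.5. Bmp1 was at 92.7 to 135 CPM in the 7 experiments against 5.40 to 18.47 in tip-like and 24.4 to 44.3 in trunk-like cells, with no overlap and a difference of 2.37 ± 0.22 (edgeR adjusted p = 1.23e-10). Fgf12 was at 5.93 to 29.0 CPM, a difference of 2.39 ± 0.53 (edgeR adjusted p = 0.000297). Tip-like cells had 0 to 1.70 CPM of Fgf12, and the trunk-like range of 0 to 39.1 covered the whole endocrine-like range. Pooled over experiments, trunk-like cells had 16.7 against 21.5 CPM in endocrine-like cells. Wnt9a was at 32.6 in EP11 and 0 to 4.05 elsewhere; its difference of 2.39 ± 0.98 (adjusted p = 0.0367) was not past the threshold without EP10, EP12 or EP14 (adjusted p 0.0617 to 0.188).

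Bmp7 ran from 2.51 to 9.69 CPM and Wnt7b from 0 to 1.46 in endocrine-like cells, below every tip-like or trunk-like value for Bmp7. The differences were -4.36 ± 0.27 for Bmp7 (edgeR adjusted p = 4.28e-14) and -4.51 ± 0.60 for Wnt7b (edgeR adjusted p = 7.38e-07). Fgf1 (-2.23 ± 0.67, adjusted p = 0.00575), Wnt5b (-1.06 ± 0.43, adjusted p = 0.035) and Fgf13 (-1.66 ± 0.71, adjusted p = 0.0431) were lower too. Fgf16 was at 0 in all 7 endocrine-like sums, against 21 transcripts in tip-like and trunk-like cells, and this call was lost without EP10 and in DESeq2 (adjusted p = 0.0546). The Fgf1 call was also lost without EP10 (adjusted p = 0.0554), at Leiden resolution 2, where its difference was -0.97 (0.267), and with the 336 cells held apart counted as endocrine-like (-1.47, 0.0786). The Fgf13 call was lost without EP10, EP12, EP16 or EP17 (0.0916 to 0.173) and without the E18.5 plate coded P6, described below (0.0679), and that of Wnt5b without EP12, EP14, EP16 or EP17 (0.0534 to 0.51), without that plate (0.0532) and with the cells held apart counted in (0.0559). Without EP10, 6 rather than 10 members passed.

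Around them, 9 of 13 Wnt receptors were lower in endocrine-like cells and 0 were higher (Fzd4 -3.93 ± 0.60, Fzd1 -3.93 ± 0.29, Fzd5 -3.61 ± 0.30, Fzd2 -2.65 ± 0.38), and 5 of 6 Fgf receptors were lower, Fgfrl1 with -2.84 ± 0.24 and Fgfr2 with -2.25 ± 0.37, while Klb was higher (1.94 ± 0.32). Among Bmp targets 5 of 7 were lower and 0 higher (Smad6 -4.35 ± 0.39, Id3 -3.37 ± 0.42, Id1 -3.31 ± 0.46, Id2 -2.61 ± 0.48). The modifiers Rspo4 (4.92 ± 0.51), Frzb (4.38 ± 0.56) and Chrd, a Bmp antagonist that Bmp1 cleaves (4.93 ± 0.81), were higher.

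Precursors and hormone cells were compared through gates on single genes, set over all cells. Neurog3-gated cells have at least 2 Neurog3 and 0 Fev transcripts, Fev-gated cells the converse, and both lie outside the hormone gates. A hormone gate needs a hormone at 1% of transcripts or more and at 3 times any other hormone. Cells with 2 hormones at similar levels above 1% could therefore enter the Neurog3 or Fev gate. Neurog3 marks endocrine precursors and Fev a later precursor state. Bmp7 and Wnt7b were higher in the Neurog3 gate and Wnt4 in the Fev gate, but the first difference moved with the trunk-like cells in the gate. Only 5 members passed the filter on low counts, of which 2 were higher in the Neurog3 gate and 1 lower, while 34.9% of all 9254 genes tested passed (18.9% higher and 15.9% lower). Between hormone gates, Wnt4 and the intracellular Fgf14 were higher in glucagon-gated cells and Bmp1 in insulin-gated cells, 3 of 5 tested members, while 32.4% of all 9962 genes tested passed (1589 or 16% higher and 1634 or 16.4% lower).

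Bmp7 was at 70.1, 82.1, 54.2 and 140 CPM in Neurog3-gated cells of EP10, EP11, EP12 and EP14, and at 6.57 to 23.4 in Fev-gated cells of 6 experiments. The log2 difference was 3.01 ± 0.26 (edgeR adjusted p = 3.04e-05). Wnt7b was at 35.7, 19.96, 23.1 and 65.1 in Neurog3-gated and 0 to 4.38 in Fev-gated cells, a difference of 4.79 ± 0.64 (edgeR adjusted p = 0.000388). Of the 143 Neurog3-gated cells, 88 were endocrine-like, 40 trunk-like and 9 in the unassigned E12.5 epithelium, while 313 of 376 Fev-gated cells were endocrine-like. Among endocrine-like cells alone, a choice made after the values were seen, Bmp7 in the Neurog3 gate was at 26.0, 12.2, 24.4 and 32.9 CPM in the same 4 experiments, against 3.89, 4.92, 5.08 and 9.73 in the Fev gate. Wnt7b in the endocrine-like part of the Neurog3 gate was at 8.68, 0, 5.22 and 0. Bmp7 was thus higher in the Neurog3 gate within each of these experiments, at a lower level, and Wnt7b in 2 of 4. Neither gene passed the filter on low counts there, so the test gave no value.

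Wnt4 went the other way, at 25.1, 11.1, 12.7 and 4.88 in Neurog3-gated and 55.0 to 504 in Fev-gated cells, a difference of -2.16 ± 0.33 (edgeR adjusted p = 0.000823). The groups did not overlap, and among endocrine-like cells alone the difference was -1.72 (edgeR adjusted p = 0.000858).

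Wnt4 was at 117, 97.3, 95.6, 152, 494, 133 and 56.9 CPM in glucagon-gated cells of EP10, EP11, EP12, EP14, EP16, EP17 and EP18. In insulin-gated cells it was at 54.3, 44.3, 45.5, 173 and 49.6 in EP10, EP12, EP14, EP16 and EP17. In each of the 5 experiments with both gates the glucagon-gated value was the higher. The log2 difference was 1.27 ± 0.11 (edgeR adjusted p = 6.35e-08), and 0.83 without the pairing by experiment (adjusted p = 0.289). Of the 572 glucagon-gated cells 283 were in the set held apart and 278 were endocrine-like, and among endocrine-like cells alone the Wnt4 difference was 1.22 (adjusted p = 3.15e-08). Bmp1 was at 119 to 161 in insulin-gated and 58.3 to 113 in glucagon-gated cells, with no overlap and a difference of -0.93 ± 0.11 (edgeR adjusted p = 3.46e-06), which was -0.59 after thinning (adjusted p = 0.116). Fgf14, whose product binds sodium channels, was at 0 to 17.1 in glucagon-gated and 0 to 2.07 in insulin-gated cells, a difference of 3.49 ± 0.62 (edgeR adjusted p = 0.000236).

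**Figure D5:**
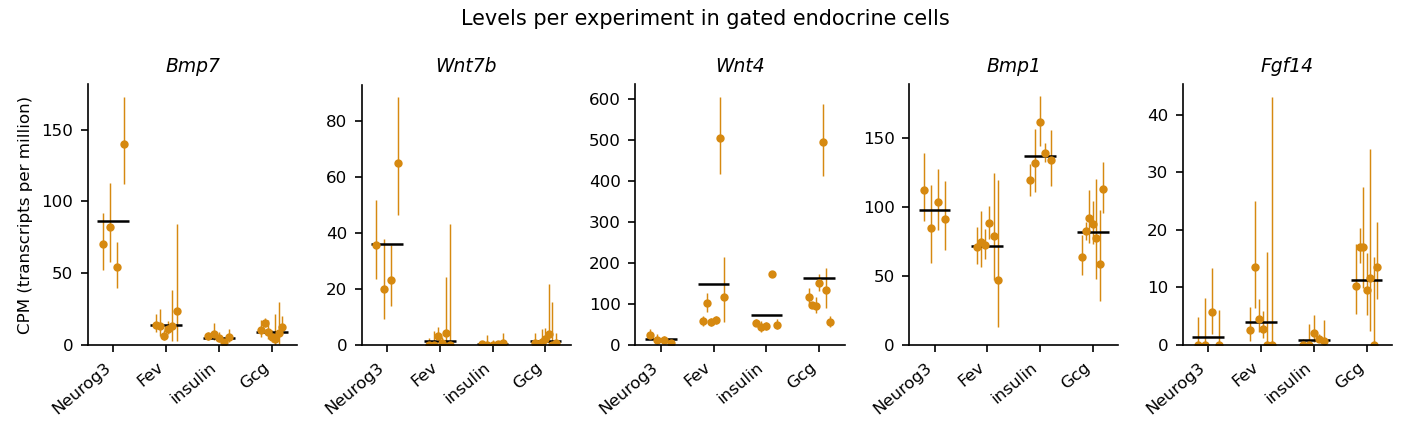
CPM (y axes, linear, starting at 0) of 5 members in Neurog3-gated, Fev-gated, insulin-gated and glucagon-gated (Gcg) cells; each point is 1 experiment with its exact Poisson 95% interval and black lines are means over experiments. Bmp7 and Wnt7b are higher in the Neurog3 gate, which holds 40 trunk-like cells, and the 2 highest Wnt4 points, 504 and 494, are the E18.5 values of the Fev and glucagon gates.

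Over stage, 1 of 10 tested members passed in endocrine-like cells, against 9.37% of all 12862 genes tested (772 rose and 433 fell). Wnt4 rose with a slope of 0.37 ± 0.06 log2 units per day (SE, n = 7, edgeR adjusted p = 0.00672). This slope leaves out the cells held apart, which in EP11 at E12.5 were 288 against 40 endocrine-like cells. Of the 662 endocrine-like cells of E18.5, 386 and 233 were in clusters 1 and 8, which held 1 cell of the other experiments together, so the slope runs between different clusters of the class. Wnt4 stood at 190 and 159 CPM in clusters 1 and 8. At E18.5 it was at 202, 213 and 175 CPM on the GFP plate, the live plate and another plate. That plate is labelled as live cells, but 299 of its 301 cells were endocrine-like and its title carries the code P6 that is otherwise found only in titles of GFP libraries, so its sort is uncertain; without it the slope was 0.37. Without EP16 the slope was 0.15 (adjusted p = 0.545), and with the stages given in the titles of some GFP libraries, which differ from their stage labels, it was 0.71 (adjusted p = 0.135). Fgf14 had -0.41 ± 0.14 per day (adjusted p = 0.103) and Fgf12 0.23 ± 0.09 (adjusted p = 0.157).

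Immune-like cells had a high level of 1 of these ligands, Bmp2. They were made of 259 cells with all 10 listed immune markers raised, led by macrophage genes such as C1qc and Csf1r, and 24 cells with 6 of 10 raised, led by mast cell genes such as Cpa3 and Cma1. Bmp2 was at 101 CPM in the first set and had 1 transcript in the second, which made up 13 of the 30 immune-like cells at E18.5. In the whole class Bmp2 was at 78.7 and 68.9 CPM at E12.5, 52.3 at E13.5, 170 at E14.5, 59.6 at E15.5 and 38.2 at E18.5, above the mesenchyme-like range of 0 to 7.47 in every experiment. The log2 difference from mesenchyme-like cells was 4.22 ± 0.46 (SE, n = 6, edgeR adjusted p = 1.07e-08). It was the only tested member that was higher, and 13 of 18 were lower, while 54.2% of all genes tested passed (25.4% higher and 28.8% lower). Some 36.4% of immune-like cells had a Bmp2 transcript, and 12.7% after thinning, against 0.69% of thinned mesenchyme-like cells. Live plates held 29.0% of the immune-like cells, and on them Bmp2 was at 79.8 CPM.

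No transcript of Wnt5a, Wnt5b, Wnt9a or Fgf1 was counted in immune-like cells, so mesenchyme-like levels were at least 157-fold, 17.7-fold, 10.6-fold and 16.7-fold higher against a floor of 3 counts over the class. Bmp4, Bmp7, Fgf10 and Wnt11 had 1 transcript each there. Their ratios, mesenchyme-like to immune-like, were 184 (95% counting interval 32.8 to 7270) for Bmp4, 115 (20.5 to 4554) for Bmp7, 93.5 (16.6 to 3708) for Fgf10 and 48.2 (8.48 to 1919) for Wnt11. Wnt4 was at 2.96 to 21.1 CPM, lower by 1.96 ± 0.44 (log2 difference -1.96, edgeR adjusted p = 0.000349), beside endocrine markers at 1556 CPM in these cells, whose part was not tested. The calls for Fgf12 and Wnt9a were lost on live plates only (adjusted p 0.0902 and 0.13). Of the pathway lists, 6 of 7 Bmp targets, 6 of 7 Bmp modifiers and 8 of 13 Wnt receptors were lower in immune-like than in mesenchyme-like cells, and 2 Wnt receptors were higher, with Ror2 (-9.71 ± 0.79) and Fzd2 (-6.34 ± 0.58) among those lower.

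The rarest described members were read mainly from pooled counts. Bmp5, with 53 transcripts in the kept cells, was at 4.08 CPM in mesenchyme-like cells (43 transcripts) and 2.59 in mesothelium-like cells, where all 7 came from EP11 at E12.5, and 0 were counted in endocrine-like, trunk-like and immune-like cells. Bmp8b was at 7.64 CPM in trunk-like, 6.39 in the unassigned E12.5 epithelial cells and 1.46 in tip-like cells, and at 0 in mesothelium-like cells. Wnt3 was at 7.76 CPM in mesothelium-like cells, of whose 21 transcripts 17 came from E12.5, and at most 0.763 in the other named classes. Fgf16, a relative of Fgf9 from the same subfamily, was at 5.91 in mesothelium-like and 3.46 in trunk-like cells, and its mesothelium minus mesenchyme difference of 2.62 ± 1.16 had an adjusted p of 0.144. Fgf14, with 294 transcripts in the kept cells, was less rare. It was at 3.49 in endocrine-like cells and 16.3 in the 336 cells held apart, of which 283 fell in the glucagon gate. Bmp5, Bmp8b, Wnt3, Fgf16 and Fgf7 hold too few counts for a value per experiment to carry much weight. Fgf14 had 128 transcripts over the 7 endocrine-like sums, so its values per experiment are limited too. Wnt2b, given by experiment above, had 116 transcripts, of which 94 came from mesothelium-like cells.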

How the data were processed

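SORT-seq counts of mouse embryonic pancreas cells were used in 1 deposited table of 19788 rows, 89 of them spike-ins. Its values are expected counts: transcript numbers that the authors corrected for molecular identifier collisions, so they need not be whole. Reads were aligned with BWA to mm10, per the submitters' processing notes, which also name Seurat; their versions are not given in the sources used here. Expected counts were rounded here to whole numbers. By name, 5760 wells matched a library; the other 1536 were left out. Wells with at least 2000 transcripts outside spike-ins and 500 genes were kept (4318), less 8 above 5 times their plate's median.

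Cells were clustered with scanpy 1.11.5 (2000 variable genes, 30 components, 15 neighbours, Leiden resolution 1). A class name needed at least 3 markers of its list. Transcripts were summed per experiment and class. These sums were fitted with edgeR 4.0.16 in R 4.3.3 (TMM, filterByExpr, quasi-likelihood test, Benjamini-Hochberg over all genes tested, threshold 0.05). Comparisons of classes or gates, and the difference of slopes, had the experiment as a block. Slopes within a class had 1 sum per experiment and no block. DESeq2 1.42.0 was an alternative. Sums of 1 experiment share plates; their deviations from class means had a median r of 0.264 (0.106 to 0.531, 70 of 70 pairs over 0.1) against -0.052 between experiments. Slopes used embryonic day as labelled; 12 libraries have a title with another stage, and 4 carry no experiment number. Exact Poisson intervals (95%) and floors of 3 counts cover counting error only. The tests were checked on simulated data. Named genes were all described members and up to 4 called genes of each pathway list with the largest differences. Members and lists were chosen with earlier results of these data known.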

Additional observations from a re-analysis of the deposited data

Results flagged for a closer look

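For 3 ligands the stage slopes differed between mesothelium-like and mesenchyme-like cells by edgeR's test of the difference itself, which was added after the data were seen. Without EP16, Fgf10 (edgeR adjusted p = 0.634) and Fgf18 (0.121) no longer passed this test, while Wnt5a did (0.00391). The difference, mesothelium minus mesenchyme in log2 units per day, was -0.84 for Fgf10, -0.69 for Fgf18 and 0.61 for Wnt5a, over 6 experiments of which 1 was at E18.5. Classes outside the comparisons also held members above the limit that a count of 0 allows. In the 29 endothelium-like cells Bmp1 was at 53.2 CPM, Bmp2 at 52.0, Bmp4 at 18.9 and Wnt4 at 15.4. In the 15 neural-like cells Fgf13 was at 253, Bmp7 at 72.9 and Bmp1 at 34.9. These classes had no test.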

How the results depend on the processing

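The reported fits hold 62 calls of members. Under the alternatives, 900 of 954 values of these stayed on the same side of the threshold, 54 passed no longer and 0 reversed. Alternatives in which a called member was not tested are not among the 954. Of the 62 calls, 38 held under every alternative that tested them. Leaving out 1 experiment in turn gave 13 to 15 called members for mesenchyme against epithelium, 6 to 9 for mesothelium against mesenchyme, 3 to 4 for tip against trunk, 6 to 11 for endocrine against epithelium, 14 to 14 for immune against mesenchyme, 3 to 4 for each gate comparison, and for slopes 0 to 3 in mesenchyme, 0 to 2 in mesothelium, 0 to 3 in epithelium and 0 to 2 in endocrine. After thinning to 2000 transcripts, fewer members were tested and the counts, in the same order, were 6, 2, 0, 3 and 7, then 1 for glucagon against insulin, 0 for Neurog3 against Fev and 0 for the mesenchyme and mesothelium slopes. With no filter on low counts, 6 members passed for glucagon against insulin, 7 for Neurog3 against Fev, 7 for the mesenchyme, 4 for the mesothelium and 1 for the epithelium slope. DESeq2 gave 4 for the mesenchyme, 4 for the epithelium and 2 for the endocrine slope. The epithelium slope count was 2 with the E12.5 epithelial cells counted as trunk-like, chosen after seeing the data, and 2 at Leiden resolution 2. The endocrine slope count was 2 at that resolution, 2 with the cells held apart counted as endocrine-like (also chosen after seeing the data), 2 in the wells of the authors' smaller table and 0 with the stages in the titles. For these changes the cause was not tested. Without the experiment as a replicate block, Bmp1 (adjusted p = 0.129) and Fgf18 (0.182) no longer passed between mesothelium and mesenchyme, nor Bmp1 between tip and trunk (0.0512) or Wnt4 between glucagon and insulin gates (0.289); no other called member lost its call. Mesothelium-like sums hold 17 to 30 cells, which limits members at low counts.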
